A study of Arabidopsis thaliana with 5 samples.

Results

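Brassinosteroids are plant steroid hormones that promote cell expansion and leaf growth. Their synthesis runs from membrane sterols through a chain of reductases and cytochrome P450 enzymes, and the hormone is perceived at the plasma membrane by the receptor kinase BRI1, which relays to the transcription factors BZR1 and BES1. Active BZR1 and BES1 repress several of the synthesis genes, so that high signalling is known to lower synthesis (a negative feedback). Described here are 10 genes of this pathway in Arabidopsis thaliana cotyledons, the seed leaves. DWF4, CPD, ROT3 and BR6OX2 are P450 enzymes known as targets of the feedback. DWF1, DWF5 and DET2 are reductases of the synthesis, and the others are BRI1, BZR1 and BES1. The 10 genes were found by the locus of each probe's transcript accession. All 10 were measured, among 25433 genes with a matched probe and 18122 genes tested.

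The samples were 3 biological replicates of the mutant ckg and 2 of the wild type Col-0, all from cotyledons of 7-day-old seedlings in days of 16 h light and 8 h dark, with each RNA labelled with Cy3 and hybridised alone to 1 Agilent array. A label field of the mutant samples reads "cgr mutant", and the sources used here give neither its allele nor its parental line. From outside knowledge the mutated gene was taken to be CYTOKININ-RESPONSIVE GROWTH REGULATOR (CKG, AT5G50915), which encodes a basic helix-loop-helix (bHLH) transcription factor. The CKG probe gave processed signals of 6.46, 16.5 and 51.3 in ckg and 1070 and 962 in Col-0, and was well above background on 0 of 3 ckg arrays, a level lower by at least 29.6-fold.

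The ckg arrays lay on slide 2 and the Col-0 arrays on slide 1, and the effects of slide and of genotype cannot be told apart here. The share of spots well above background was 52.4% on ckg replicate 3 and 66.7% to 70.0% on the other arrays. The lowest processed signal was 31.0 on ckg replicate 3 and 2.68 to 4.01 on the other arrays. Of the tissue markers, 4 of 4 photosynthesis genes were well above background on every array, with summed processed signals of 1091640 to 1149360 in ckg and 1139700 to 1344590 in Col-0, and 0 of 4 shoot apex markers (STM, CLV3, WUS and KNAT1) were above background on any array. Of the root markers, 1 of 5 genes, SCR, was above background on every array. CASP2 and COBL9 were above it on 2 of 3 ckg arrays and 2 of 2 Col-0 arrays. RHD6 and PLT1 were above it on none. The summed root signals, mostly from SCR, were 2031 to 2855 in ckg and 2126 to 2310 in Col-0. Vascular markers were above background on every array for 4 of 4 genes. Their sums were 37448 to 62995 in ckg and 55322 to 60165 in Col-0. SUC2 makes up most of the vascular sum. The vascular marker XCP1 was lower on every ckg array than on either Col-0 array, at 2785, 3009 and 1835 in ckg and 3705 and 3821 in Col-0 (-0.66 ± 0.20 on the log2 scale, limma adjusted p = 0.197). The vascular markers SUC2 (-0.22 ± 0.21), APL (0.02 ± 0.14) and ATHB8 (0.00087 ± 0.13) had overlapping groups. The photosynthesis genes RBCS1A (-0.24 ± 0.12) and CAB3 (-0.23 ± 0.13) were, like XCP1, lower on every ckg array. LHCB1.1 (-0.20 ± 0.13) and LHCA1 (-0.14 ± 0.13) had overlapping groups. The part of these markers in the results was not tested. In whole cotyledons, fewer cells of a type and less RNA per cell cannot be told apart.

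The comparison of ckg with Col-0 asks how the feedback-repressed synthesis genes stand against the rest of the pathway when CKG is mutated. The 4 feedback targets had lower mean signal in ckg than in Col-0, by 0.32 to 0.84 on the log2 scale, whereas 5 of the 6 other members lay between -0.15 and 0.10 and BES1 was 1.32-fold higher. No member passed limma's adjusted p of 0.05, and neither did any other gene (0% of the 18122 tested, smallest adjusted p 0.0539). At an unadjusted limma p under 0.05 stood 1 member lower in ckg, BR6OX2, and 1 higher, BES1, where the shares over all tested genes were 9.81% lower and 8.3% higher. Levels below are log2 of the processed signal minus the array's own 75th percentile, written as scaled log2 signal, and errors of differences are limma standard errors (SE).

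**Figure D1:**
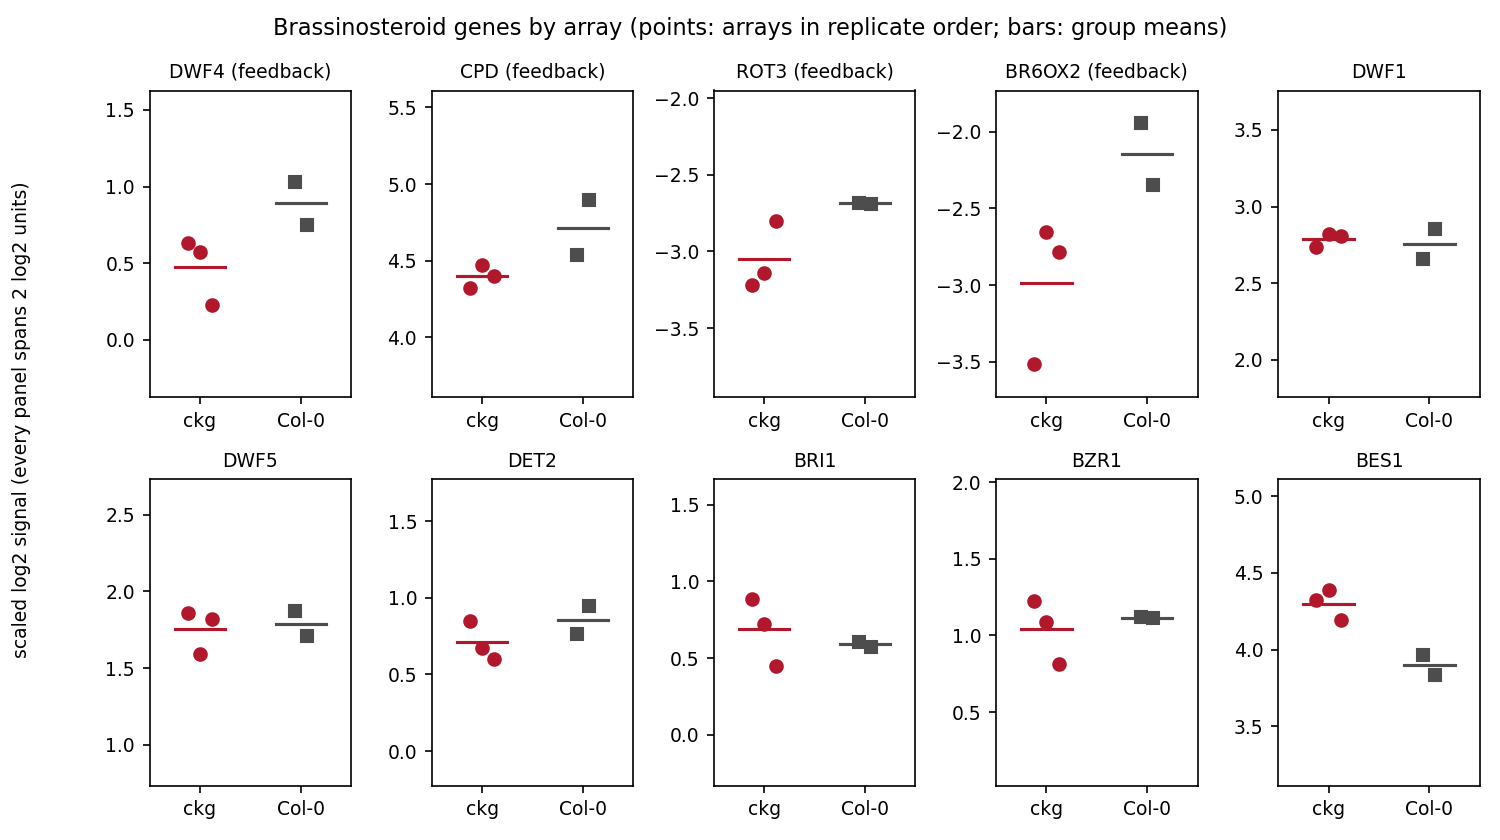
Scaled log2 signal of each of the 10 genes on the 3 ckg arrays (circles) and the 2 Col-0 arrays (squares), with group means as bars; each panel has its own range, and levels are not comparable between panels. In the 4 feedback targets every ckg array lay below both Col-0 arrays, and in BES1 every ckg array lay above them.

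DWF4 (AT3G50660) encodes the P450 that hydroxylates the sterol side chain and is regarded as the rate-limiting enzyme of the pathway. Its processed signals were 3826, 3885 and 2596 in ckg and 5126 and 3598 in Col-0. After scaling, these became 0.64, 0.57 and 0.23 in ckg and 1.03 and 0.75 in Col-0. Replicate 3 was the lowest of the ckg arrays, and the groups did not overlap once scaled, although their processed signals did. The difference was -0.41 ± 0.17 (SE; n = 3 ckg and 2 Col-0), a level 0.752 times that of Col-0 (limma adjusted p = 0.295). A second probe gave -0.38, also with ckg below Col-0 on every array. Without Col-0 replicate 1 the difference was -0.27.

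CPD (AT5G05690), the P450 that oxidises the sterol ring, had scaled log2 signals of 4.33, 4.47 and 4.40 in ckg and 4.54 and 4.90 in Col-0. The ckg arrays lay close together and just under the lower Col-0 array. The difference was -0.32 ± 0.14 (limma adjusted p = 0.319), and a second probe gave -0.26. This direction depended on the signal used. Raw median intensities of the CPD spot were 52961.5, 61106.5 and 48748 in ckg and 57464.5 and 44686 in Col-0, so that Col-0 replicate 2 was the lowest array before processing and, at a processed signal of 63590.5, the highest after it. With normexp background correction of the raw signals the difference was 0.022, with the authors' deposited series table it was 0.025, and without Col-0 replicate 2 it was -0.14.

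ROT3 (AT4G36380), a P450 that hydroxylates the side chain after DWF4 and is known from a mutant with short, round leaves, was a weakly expressed member. Its processed signals were 265, 296 and 319 in ckg and 392 and 331 in Col-0, well above background on all 5 arrays. Scaled log2 signals were -3.22, -3.14 and -2.80 in ckg and -2.68 and -2.69 in Col-0. The Col-0 arrays were nearly equal, and ckg replicate 3 lay just under them. The difference was -0.37 ± 0.16 (limma adjusted p = 0.298). It was -0.17 with the series table and -0.23 with normexp. ROT3 had no second probe. Its raw median intensities were 368, 385 and 604 in ckg and 472.5 and 438 in Col-0. Before processing, ckg replicate 3 was thus the highest array.

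BR6OX2 (AT3G30180), the P450 that oxidises the steroid ring at the end of the chain and forms brassinolide, the most active hormone, showed the largest difference among the 10 genes. Processed signals were 215, 416 and 322 in ckg and 653 and 420 in Col-0. Scaled log2 signals were -3.52, -2.65 and -2.79 in ckg and -1.95 and -2.35 in Col-0. Replicate 1 was the lowest ckg array by a wide margin, and the other 2 lay under the lower Col-0 array. Raw median intensities were 283, 432.5 and 544 in ckg and 664.5 and 444 in Col-0. Before processing, ckg replicate 3 thus lay above Col-0 replicate 2. BR6OX2 differed by -0.84 ± 0.30 (0.559 times the Col-0 level; limma adjusted p = 0.248). A second, dimmer probe, above background on 2 of 3 ckg arrays and 2 of 2 Col-0 arrays, gave -1.08. The difference was -0.57 without ckg replicate 1, -0.55 with normexp and -0.54 with the series table. In 7 of 16 alternatives BR6OX2 was not at an unadjusted p under 0.05: with normexp, the series table, no filter on dim probes or the replicate block, and without Col-0 replicate 1, Col-0 replicate 2 or ckg replicate 3.

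**Figure D2:**
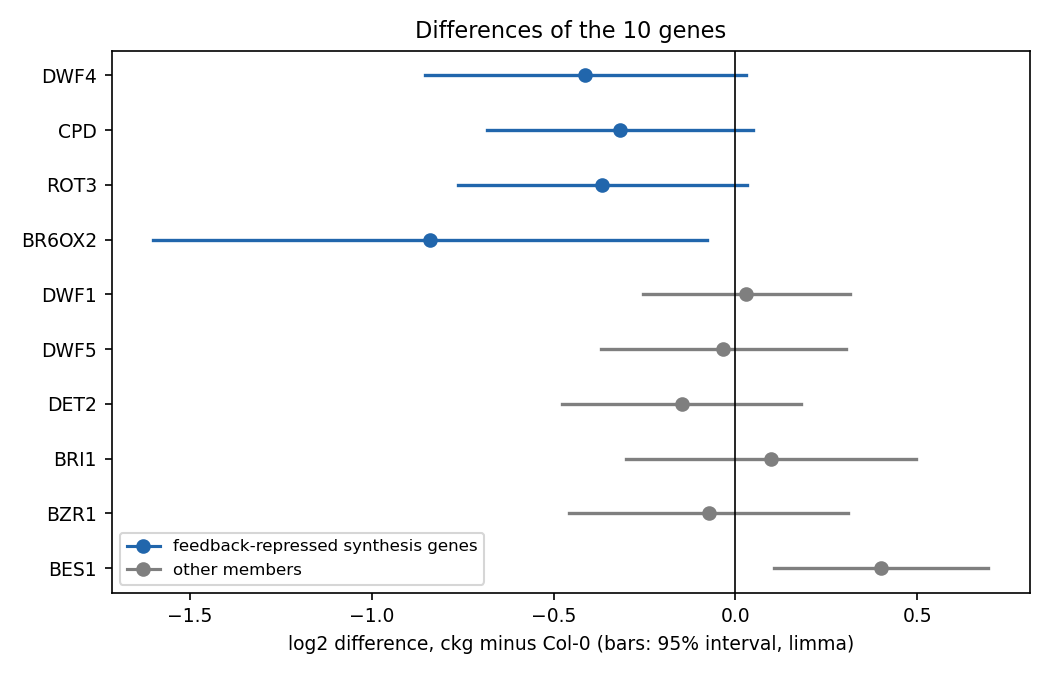
Log2 differences, ckg minus Col-0, of the 10 genes (points) with 95% limma intervals (bars), the 4 feedback targets above the 6 other members. The feedback targets lay between -0.84 and -0.32, and the intervals of BR6OX2 and BES1 did not include 0.

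The reductases among the members had levels close to those of Col-0 by the probe used for each. DWF1 (AT3G19820), the sterol reductase that makes campesterol, had scaled log2 signals of 2.73, 2.82 and 2.81 in ckg and 2.66 and 2.85 in Col-0, and differed by 0.03 ± 0.11 (95% interval -0.25 to 0.31). The ckg arrays lay inside the Col-0 range. The other DWF1 probes did not follow it: both were above background on every array, lay lower on every ckg array, and gave -0.62 and -0.41. One of them read 1490, 1971 and 985 in ckg and 2076 and 2093 in Col-0 as processed signal, while the probe used read 15442.6 to 18446.8 across the arrays. The level of DWF1 therefore has no settled direction.

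DWF5 (AT1G50430), which reduces a double bond of the sterol ring, had scaled log2 signals of 1.86, 1.59 and 1.82 in ckg and 1.87 and 1.71 in Col-0. The groups overlapped, and the difference was -0.03 ± 0.13 (95% interval -0.37 to 0.30). DET2 (AT2G38050), the steroid reductase whose loss gives light-grown form in the dark, had 0.85, 0.67 and 0.60 in ckg and 0.77 and 0.95 in Col-0. DET2 differed by -0.15 ± 0.13 (95% interval -0.48 to 0.18), again with overlapping groups. Its dim second probe gave -0.97, with processed signals of 156, 160 and 35.2 in ckg and 198 and 162 in Col-0, and was not above background on ckg replicate 3.

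Of the signalling genes, BRI1 and BZR1 overlapped between the groups. BRI1 (AT4G39400), the receptor, had scaled log2 signals of 0.89, 0.72 and 0.45 in ckg and 0.61 and 0.57 in Col-0, a difference of 0.10 ± 0.16 (95% interval -0.30 to 0.50). BZR1 (AT1G75080) had 1.23, 1.09 and 0.81 in ckg and 1.12 and 1.11 in Col-0, a difference of -0.07 ± 0.15 (95% interval -0.46 to 0.31), and its second probe gave -0.08. In both genes ckg replicate 3 was the lowest of the 5 arrays and ckg replicate 1 the highest, so the spread within ckg exceeded the difference between the groups. The other 3 BRI1 probes were near background, with processed signals of 12.7 to 87.4 over all arrays.

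BES1 (AT1G19350), the close relative of BZR1, was the 1 member with higher signal on every ckg array. Its processed signals were 49272, 54752 and 40526 in ckg and 39245 and 30502.5 in Col-0. Scaled log2 signals were 4.32, 4.39 and 4.19 in ckg and 3.96 and 3.84 in Col-0. The gap between the groups was wider than the range within either. BES1 differed by 0.40 ± 0.12 (95% interval 0.11 to 0.69; limma adjusted p = 0.196). A second probe for the same transcript gave 0.15 with overlapping groups, and another, for a different BES1 transcript, was near background with a difference of 0.06. The mean of all BES1 probes differed by 0.21. In 4 of 16 alternatives BES1 was not at an unadjusted p under 0.05: with that mean, with the mean of probes above background on all arrays, and without Col-0 replicate 2 or ckg replicate 2.

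**Figure D3:**
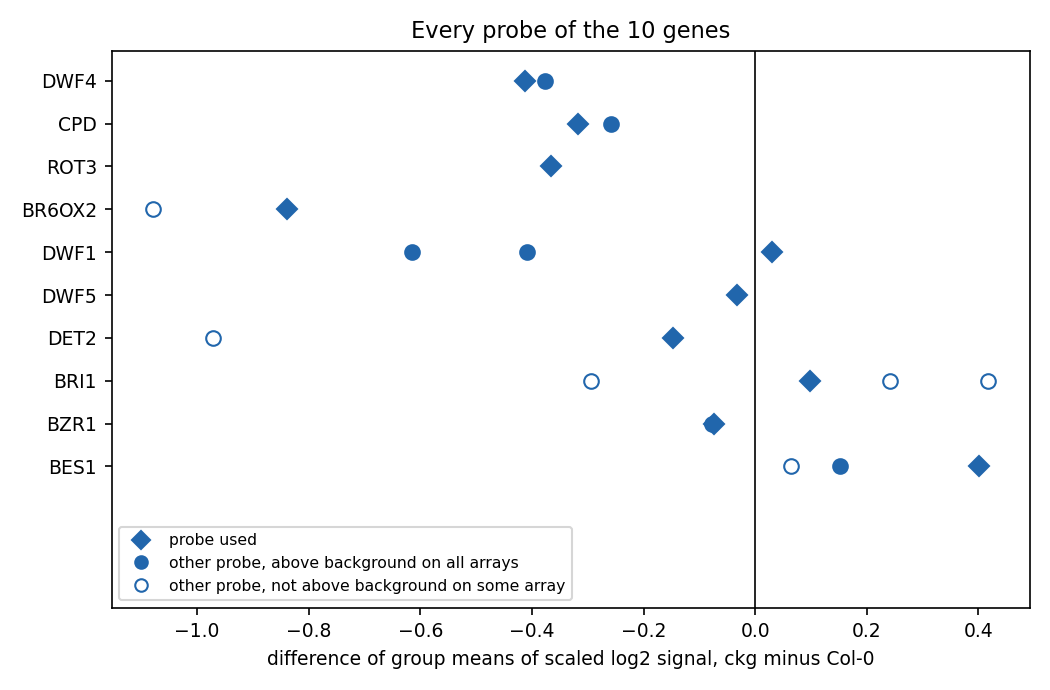
Difference of group means of scaled log2 signal, ckg minus Col-0, for all 22 probes of the 10 genes; diamonds are the probes used, filled circles other probes above background on all 5 arrays, open circles the rest. The probes of DWF4, CPD and BR6OX2 lay together below 0, while those of DWF1 lay on both sides of it.

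As groups, the feedback targets and the other members were set side by side. The median log2 difference was -0.39 over the 4 feedback targets and -0.00091 over the 6 others, beside -0.0097 over all genes tested, of which 51.3% lay below 0. The mean difference was -0.48 for the feedback targets and 0.05 for the others, a gap of -0.53. This separation depends on the probes used: with the mean of all probes of each gene, DWF1 (-0.33) and DET2 (-0.56) lay within the range of the feedback targets, the others averaged -0.11 and the gap was -0.39. The DET2 value includes its dim second probe, not above background on ckg replicate 3. With the mean of probes above background on all arrays, DET2 was -0.15, the others averaged -0.035 and the gap was -0.44. After each gene was centred on its mean over the arrays, the feedback targets averaged -0.35, -0.09 and -0.14 on the ckg arrays and 0.33 and 0.25 on the Col-0 arrays. The other members averaged 0.12, 0.02 and -0.08 in ckg and -0.03 and -0.02 in Col-0. The feedback targets were thus lower on each ckg array than on either Col-0 array, most so on replicate 1, and the others were not. In 4 of the 10 members every ckg array lay below both Col-0 arrays, and in 1 above, where the shares of all genes were 22.6% and 19.5%. No p is given for these group values, because the genes were chosen with earlier results of these data known. In the authors' deposited series table the groups overlapped in all 4 feedback targets, and the gap was -0.27; BES1 did not overlap there either, with the authors' log2 values at 15.45, 15.49 and 15.20 in ckg and 14.85 and 14.85 in Col-0.

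**Figure D4:**
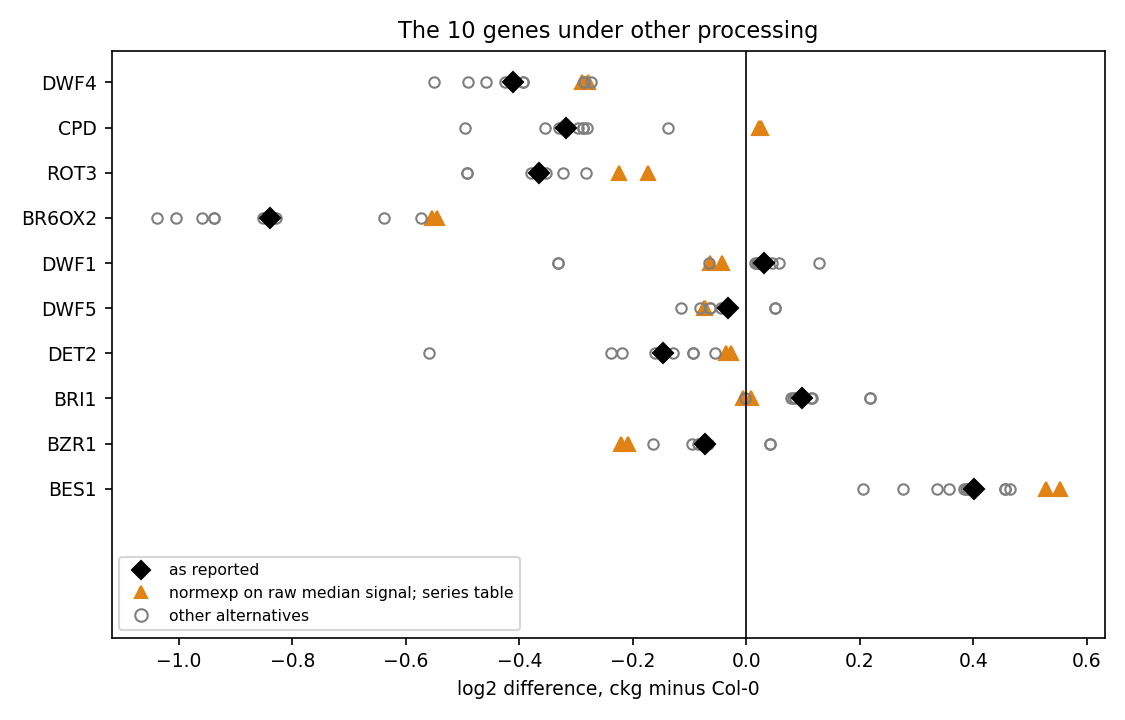
Log2 difference, ckg minus Col-0, of each of the 10 genes as reported (diamonds), with normexp on raw median signals or the series table (triangles), and under the other alternatives (open circles). DWF4, ROT3 and BR6OX2 stayed below 0 and BES1 above 0 in every alternative, while CPD moved to 0.022 with normexp and 0.025 with the series table. Changes of filter, outlier spots and variance model left every difference as reported. Changes of probe choice left ROT3 and DWF5, which had no second probe, as reported.

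Further genes of the pathway were taken from lists of 49 genes, of which 48 had a probe and 45 were tested. Of these, 17 had higher and 28 (62.2%) lower mean signal in ckg, where 51.3% of all tested genes lay below 0. Their median difference was -0.05, and 0 passed limma's adjusted p of 0.05. At an unadjusted p under 0.05 stood 3 higher (BEE1, BEE3 and BZS1) and 3 lower (PRE1, SERK1 and MYBL2). Each is 6.67% of the 45 genes, a smaller share than the 8.3% higher and 9.81% lower of all tested genes. Both other synthesis P450s had lower means. CYP90D1, which acts redundantly with ROT3, had processed signals of 394, 1411 and 921 in ckg and 1492 and 1458 in Col-0 (-0.95 ± 0.53), but -0.20 with the series table and with normexp and -0.43 without ckg replicate 1, its lowest array. BR6OX1, the paralogue of BR6OX2, was dim, with processed signals of 53.2 to 148 in ckg and 77.7 to 110 in Col-0, and differed by -0.04 ± 0.44.

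The 8 genes that make the sterol precursors ranged from -0.25 to 0.20, with a median of -0.02. The smallest unadjusted p values were those of the methyltransferase SMT2 (0.20 ± 0.10), the sterol reductase FK (-0.25 ± 0.15) and the demethylase CYP51A2 (-0.17 ± 0.12). None of them reached an unadjusted p of 0.05. The 4 measured genes of hormone inactivation had a median of 0.02, with BEN1 at 0.25 ± 0.20, the hydroxylase BAS1 at -0.10 ± 0.15 and the glucosyltransferase UGT73C5 at 0.07 ± 0.16. BAS1, which brassinosteroid is known to induce, thus differed by less than its error.

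Between the receptor and the transcription factors, SERK1, a co-receptor kinase, had scaled log2 signals of -2.14, -2.23 and -2.46 in ckg and -1.88 and -1.67 in Col-0. It was lower on every ckg array (-0.50 ± 0.15, limma adjusted p = 0.195). The difference was -0.27 with the series table. BRL1, a receptor of the BRI1 family, was at 0.42 ± 0.23. It was dim, with processed signals of 116 to 225 in ckg and 109 to 124 in Col-0. Its probe was above background on 2 of 3 ckg arrays. BKI1, an inhibitor of BRI1, read 779, 944 and 1128 in ckg and 772 and 78.5 in Col-0 as processed signal, and its difference of 1.87 ± 0.89 was 0.33 without Col-0 replicate 2. BIN2, the kinase that inactivates BZR1 and BES1, had the same shape, at 15804.6, 14786 and 9042 in ckg and 15709 and 2236 in Col-0. Its difference of 1.05 ± 0.76 was -0.24 without Col-0 replicate 2. For the kinase BSK3 the difference of 0.57 ± 0.32 was 0.06 without that array, and a second probe gave -0.17. The BIN2 relative BIL1 was at -0.19 ± 0.11.

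Among the other transcription factors, BZS1, a B-box protein that restrains brassinosteroid responses, read 1603, 1328 and 1333 in ckg and 737 and 872 in Col-0 as processed signal. All 3 ckg arrays exceeded both Col-0 arrays (0.75 ± 0.19, limma adjusted p = 0.170), and the difference was 1.38 with the series table. MYBL2, a repressor that works with BES1, differed by -0.72 ± 0.27 (limma adjusted p = 0.261). BEH4, a BZR1 relative, was at -0.45 ± 0.21 over 4 arrays, since its spot on Col-0 replicate 1 was an outlier and left out.

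Genes that brassinosteroid induces ran both ways. BEE3, a bHLH factor, had processed signals of 2771, 4931 and 3014 in ckg and 765 and 830 in Col-0, a log2 difference of 2.05 ± 0.25 (limma adjusted p = 0.0941). Its relative BEE1 had 1628, 1501 and 1252 in ckg and 515 and 578 in Col-0, a difference of 1.35 ± 0.16 (adjusted p = 0.0941 in limma). PRE1, a small helix-loop-helix growth factor, had 330, 393 and 388 in ckg and 873 and 626 in Col-0, a difference of -1.07 ± 0.16 (adjusted p = 0.102 in limma). In all 3 the groups were far apart, with BEE1 and BEE3 higher and PRE1 lower on each ckg array. The other 5 tested genes of this list, BEE2, SAUR15, IAA19, XTH22 and EXPA8, had overlapping groups and differences of -0.59 to 0.18. SAUR15, at -0.59, was dim, with processed signals of 41.2 to 113 in ckg and 84.2 to 121 in Col-0. Its probe was above background on 2 of 3 ckg arrays. The list's median was -0.10.

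**Figure D5:**
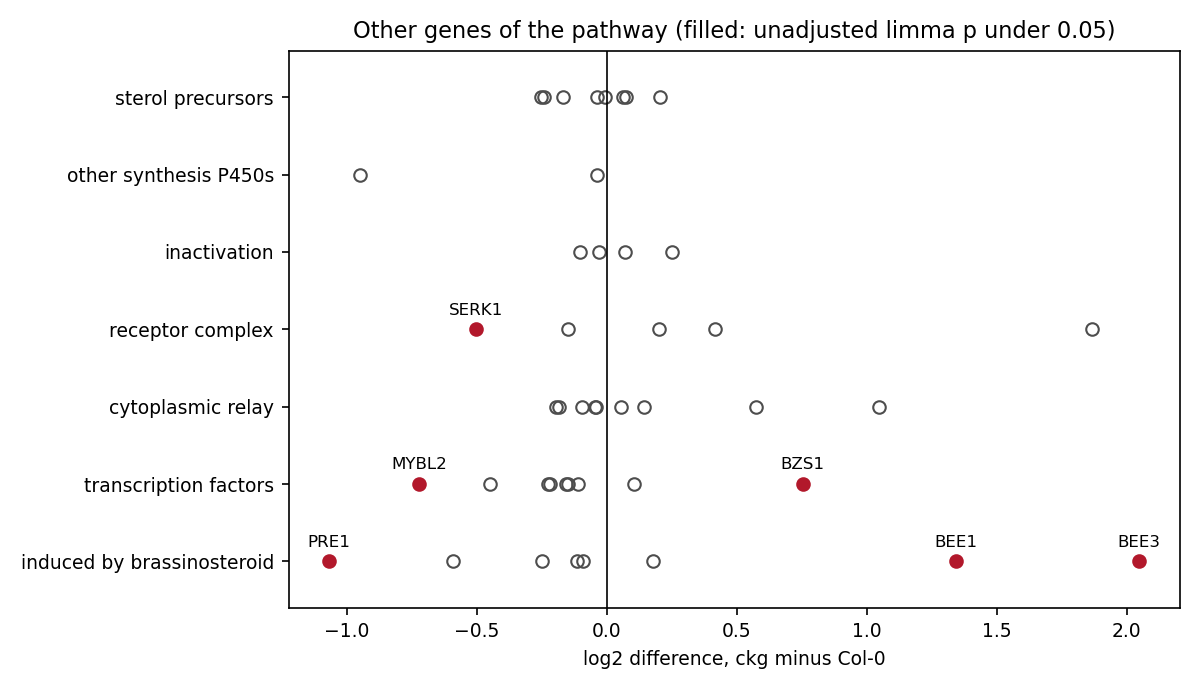
Log2 difference, ckg minus Col-0, of the 45 other tested pathway genes, 1 row per list; filled points have an unadjusted limma p under 0.05 and are named. BEE1 at 1.35, BEE3 at 2.05 and PRE1 at -1.07 lay in the same list, and the sterol precursor genes lay between -0.25 and 0.20.

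The genes whose levels followed BR6OX2 most closely over the 5 arrays, by the root mean square difference of centred scaled log2 signals, were AT2G19780 (0.0726), ATSDI1 (0.0931) and PHS1 (0.0934). For BES1 they were NAS3 (0.0317), AT5G59960 (0.0349) and NYE1 (0.0351). AT2G19780 had scaled log2 signals of -3.44, -2.51 and -2.62 in ckg and -1.89 and -2.39 in Col-0, the same order of arrays within each genotype as BR6OX2. Since AT2G19780 was picked for its likeness over these arrays, the shared order is not a separate result.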

How the data were processed

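Per the file headers, the authors extracted spots with Agilent Feature Extraction 10.7.1.1. The deposited intensities used here are the software's processed signal (not scaled between arrays) and the raw median signals of spot and local background. The processed signal is more than the raw median less background. On Col-0 replicate 2, CPD read 44686 raw and 63590.5 processed, while DWF1 read 19200 raw and 15442.6 processed. The software's steps between these values were not examined. Flags of 0 or 1 for background, outliers and saturation were also deposited. The deposited series table holds log2 values of unstated scale and normalisation, with medians of 8.49 on each array over non-control spots and ranks equal to those of the raw median signal (Spearman correlation 1 on each array). They are levels, not centred.

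Main values were log2 processed signal minus the array's 75th percentile, without control and outlier spots (35 to 197 outliers per array). No spot was saturated. Of 43603 probes, 34358 matched a locus of the TAIR10.1 gene table by accession. The array headers name another build, so no coordinates are given. A gene was represented by its brightest probe, and tested where all arrays of 1 genotype or the other had that probe well above background. The fit used limma 3.58.1 in R 4.3.3 over all 5 arrays (lmFit and eBayes, two-sided, Benjamini-Hochberg over all genes). It was tested on simulated data with changes larger than that of any member, which does not cover differences of the members' size. The number of arrays limits the precision: with 10 splits of the arrays, an exact permutation test of a single gene cannot give a p below 0.1.

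The members and lists were chosen with earlier results of these data known, and which genes count as feedback targets comes from general knowledge. The text names all members, the 3 genes of each list with the smallest unadjusted p (and those under 0.05), and for BR6OX2 and BES1, the members with the smallest p in each set, the 3 genes nearest in pattern. Genes named beside these (BEE2, SAUR15, IAA19, XTH22 and EXPA8) complete their list. Alternatives changed the background correction, scaling, values, filter, outlier spots, probe choice, variance model and replicate block, or left out 1 array. The tested genes and probes were kept except where the filter or the probe choice was what changed.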

Additional observations from a re-analysis of the deposited data

How the results depend on the processing

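Of 16 alternatives, 0 gave a member past limma's adjusted p of 0.05. Genes passing numbered 0 of 18122 as reported, with 3283 at an unadjusted p under 0.05. They numbered 3 with normexp, 3 with the series table, 1 with scaling by the median, 4 with a trended robust variance and 0 to 8 when 1 array was left out. The gap between feedback targets and other members kept its sign in all 16: it was -0.29 with normexp, -0.27 with the series table, -0.39 with the mean of all probes and -0.60 to -0.40 when 1 array was left out. DWF4, ROT3, BR6OX2, DET2 and BES1 kept their sign in all 16. The changes of filter, outlier spots and variance model left the gap and each of these differences exactly as reported. They therefore say nothing about the signs. Nor do the changes of probe choice for ROT3, which had no second probe. The mean of probes above background on all arrays also left BR6OX2 (-0.84) and DET2 (-0.15) as reported. Scaling by the median shifts all genes of an array alike, so the gap stayed at -0.53 and its sign was not tested there. The replicate block repeated the gap and the differences found without ckg replicate 3, so these 2 alternatives count as 1 for the signs.

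CPD turned to 0.022 with normexp and 0.025 with the series table. DWF1 turned to -0.064 with normexp, -0.042 with the series table, -0.33 with the mean of all its probes, -0.33 with the mean of probes above background on all arrays (an alternative chosen after seeing the data). Leaving out 1 array gave -0.066 (Col-0 replicate 1) to 0.13 for DWF1, -0.12 to 0.051 (Col-0 replicate 1; 0.050 without ckg replicate 2) for DWF5, -0.0031 (ckg replicate 1) to 0.22 for BRI1 and -0.16 to 0.041 (ckg replicate 3) for BZR1. BRI1 was -0.0052 with the series table, and BZR1 0.041 with the replicate block, to whose difference ckg replicate 3 adds nothing. The causes were not tested. The labels do not say whether same-numbered replicates are paired. Correlations of their deviations from the group means were -0.09 and -0.10. The deviations of the Col-0 arrays mirror each other, so these values cannot decide it. With the replicate block, 0 genes passed, 3029 had an unadjusted p under 0.05, and the gap was -0.60. A slide block cannot be fitted, since each slide holds 1 genotype.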
